A study of Rattus norvegicus with 7 samples.

Results

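The comparison described here sets primary rat hippocampal astrocytes given 100 µg/ml of grape seed extract against the same kind of culture given 10 µg/ml, and it rests on 2 of the 7 arrays of the study. Both arrays were chosen by their labelled cell type and dose. Hippocampal neurons at 0, 1 or 10 µg/ml and hippocampal astrocytes at 0, 1, 10 or 100 µg/ml, all from Wistar rats with an age label of 17 days, were kept in DMEM with a culture supplement and antibiotics, and exposed for 24 h to the extract, a plant material rich in polyphenols. Each combination of cell type and dose was measured on 1 Affymetrix array, so no value has an error, no test was possible, and every difference is given as a size only. Nothing in the labels says how many animals or dishes stood behind an array.

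A change is given as a log2 difference between 2 arrays, relative to the median probe set, because the median probe set was lower by 0.18 log2 at 100 than at 10 µg/ml on the deposited scale (a change of -0.18). Signals are printed as deposited. A probe set, the group of probes that reports 1 transcript, was tested where its mean log2 signal over the 4 astrocyte arrays lay above the median of all signals, 79.9, and this kept 4252 of 8740. The array at 100 µg/ml enters this mean. Some genes that were dim at the lower doses were therefore tested only because of a high signal there, which raises counts of higher genes. Each of the 2695 tested genes is represented by its brightest tested probe set. A change of at least 2-fold, 1 on the log2 scale, counts as changed. Signals under 17.9 after scaling were raised to that floor, and a fold against one of them is a lower bound.

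Astrocytes respond to inflammatory signals through several gene programmes that share stimuli but differ in regulators and timing. NF-kB drives cytokines, chemokines and adhesion molecules, interferon signalling through STAT and IRF factors drives antiviral and antigen presentation genes, and immediate early genes such as Fos answer kinase signalling within a short time and without new protein synthesis. The integrated stress response and the sterol-sensing SREBP system are separate routes that adjust amino acid supply, protein folding and cholesterol synthesis.

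From 10 to 100 µg/ml, 291 of 4252 probe sets were at least 2-fold higher (6.84%) and 528 at least 2-fold lower (12.4%), or 19.3% in either direction. At least 4-fold higher were 77 (1.81%) and at least 4-fold lower 107 (2.52%). On the deposited scale, without centring on the median probe set, the counts were 217 higher and 682 lower, so that the higher ones made up 24.1% of those changed in place of 35.5%. The lower steps of the dose series moved fewer probe sets. From 0 to 10 µg/ml, 215 were higher (5.06%) and 75 lower (1.76%), 6.82% in all, and from 0 to 1 µg/ml 48 were higher (1.13%) and 37 lower (0.87%), 2% in all. In neurons, 41 of 4453 probe sets differed at least 2-fold between 10 and 1 µg/ml (0.921%), 12 of them higher (0.269%) and 29 lower (0.651%). The SD of the changes over probe sets was 0.91 log2 from 10 to 100 µg/ml, 0.626 from 0 to 10, 0.369 from 0 to 1, and 0.306 between those 2 neuron arrays. Per gene, 170 of 2695 were at least 2-fold higher at 100 than at 10 µg/ml (6.31%) and 344 lower (12.8%). These 2 percentages are the background for every count of list members below. Some genes belong to several lists and are counted in each, so the lists are not independent of one another.

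**Figure D1:**
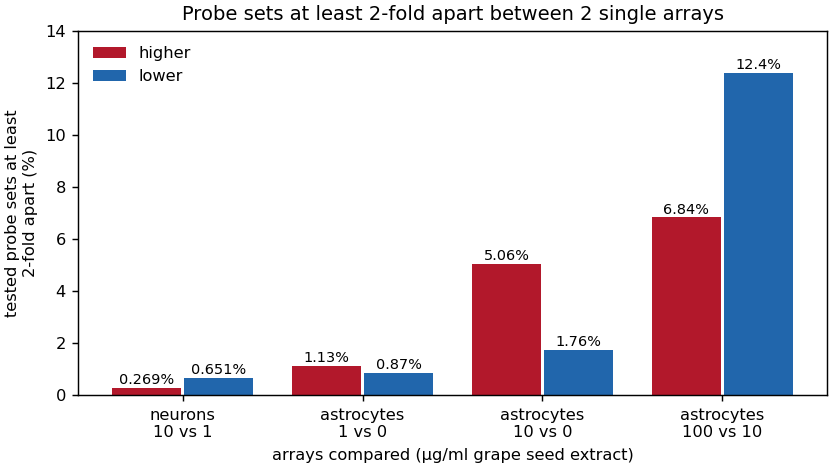
Bars show the percentage of tested probe sets at least 2-fold higher (red) or lower (blue) in each comparison of 2 single arrays, on an axis that starts at 0. The comparison of astrocytes at 100 and 10 µg/ml has the tallest bars, 6.84% higher and 12.4% lower, and it is the astrocyte step in which lower probe sets outnumber higher ones.

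Measures of RNA and labelling differed between the 2 arrays. The ratio of the 3' to the 5' probe set of Gapdh was 2.42 at 10 and 1.9 at 100 µg/ml, the lowest of the 7 arrays, and that of beta-actin was 9.29 and 10.6, with a 3' signal of 11281 at 10 and 20248 at 100 µg/ml. Of 8 probe sets for poly-A RNAs added before labelling, 7 had a higher signal at 100 µg/ml, with a median of 0.552 log2 on the deposited scale, whereas the median of 9 probe sets for the hybridization controls was -0.00281. The part of these differences in the results was not tested. Of 8 astrocyte markers, S100b, a calcium-binding protein, Sparcl1, a secreted matrix protein, Glul, glutamine synthetase, and Aldoc, a glycolytic enzyme, had signals of at least 6983 on both arrays, and Slc1a2, a glutamate transporter, was too dim to be tested. The summed signal of the 8 was 38879 at 10 and 34781 at 100 µg/ml. The cultures also carried signal of other cells: the 6 microglia and macrophage markers on the array summed to 5918 and 2307, the 4 oligodendrocyte markers to 5968 and 7309, the 5 fibroblast markers to 28670 and 31699, the 3 endothelial markers to 144 and 173, and the 5 neuron markers to 1095 and 639.

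The 139 genes at least 2-fold above untreated cells at 10 µg/ml (5.16% of 2695, with 48, or 1.78%, at least 2-fold below) took 3 courses at 100 µg/ml. A group of 33 (1.22%) was at least 2-fold higher again, 30 (1.11%) were at least 2-fold lower, and 76 (2.82%) stayed within 2-fold of their level at 10 µg/ml. In probe sets these were 54 (1.27%), 37 (0.87%) and 124 (2.92%) of 4252. Genes that had stayed within 2-fold of untreated cells at 1 and 10 µg/ml, and departed at least 2-fold from all 3 lower arrays at 100 µg/ml, were 81 on the higher side (3.01%) and 221 on the lower side (8.2%), or 143 (3.36%) and 348 (8.18%) probe sets. A further 13 genes (0.482%, or 24 probe sets, 0.564%) were lowered at 10 µg/ml and at least 2-fold higher again at 100. The steps from 0 to 10 and from 10 to 100 µg/ml share the array at 10 µg/ml, so an error in a gene's signal there enters both with opposite sign.

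**Figure D2:**
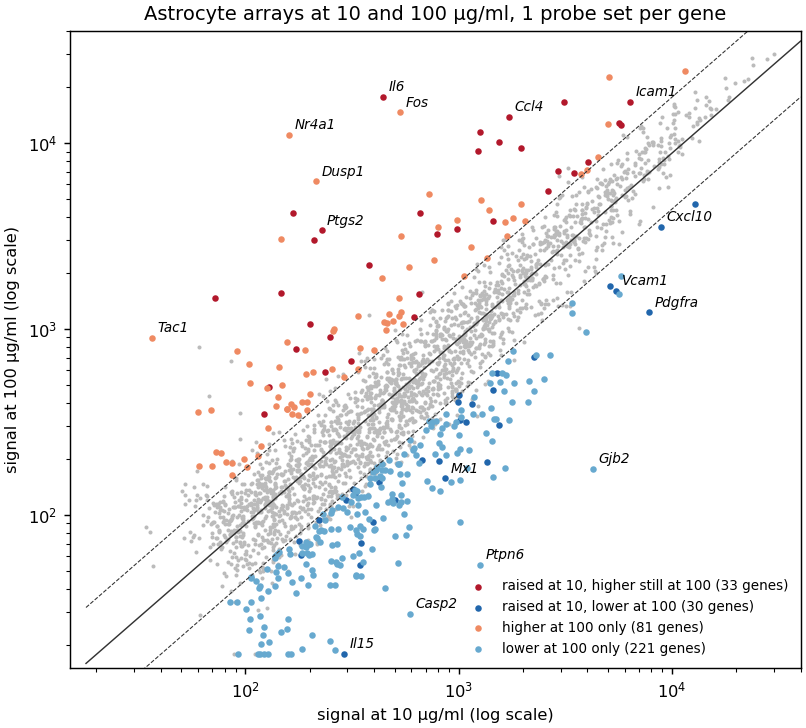
Each point is 1 gene, with its signal at 10 µg/ml on the horizontal and at 100 µg/ml on the vertical log axis, and signals under 17.9 drawn at that value. The solid line marks the median change and the dashed lines 2-fold on either side of it. Il6, Nr4a1 and Fos lie far above the band, Gjb2, Ptpn6 and Casp2 far below it, and Cxcl10, Vcam1 and Pdgfra lie under it at bright signals.

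Genes that were raised at 10 µg/ml and higher still at 100 included cytokines, chemokines of the CC family, and enzymes and factors of inflammation. Il6, the cytokine interleukin 6, had successive signals of 19.6, 26.8, 442 and 17783 at 0, 1, 10 and 100 µg/ml, an increase of 5.51 log2 (45.4-fold) over the last step after 4.59 over the step from 0 to 10. Tnf, a cytokine of early inflammation, had signals of 33.5, 6.2, 72.4 and 1465, an increase of 4.51 over the last step after 1.21 from 0 to 10 µg/ml. Csf3, a growth factor of granulocytes, had 14.3, 37, 209 and 2998 (4.02). Il1a (2.44) and Il1b (1.29), the interleukin 1 cytokines, took smaller last steps. Of 14 cytokine genes on the array, 9 were tested. Of these, 5 were at least 2-fold higher at 100 than at 10 µg/ml and 1 was lower. Their median was 1.29, against a median of -0.02 over all tested genes. The lower one was Il15, a cytokine that sustains lymphocytes, described below. On the arrays at 0, 1 and 10 µg/ml alone, Il6, Tnf and Csf3 would have fallen under the signal filter. Their high signal at 100 µg/ml brought them into this count.

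The chemokines took different courses, both between and within families. All 5 tested CC chemokines were raised from 0 to 10 µg/ml, 3 of them were higher again, and the list's median over the last step was 1.16. Ccl4, which attracts monocytes and T cells, had signals of 202, 232, 1713 and 13859 (3.19). Ccl3, its close relative, had 315, 373, 3114 and 16708 (2.60), and Ccl20, which attracts cells bearing its receptor Ccr6, 45.1, 72.5, 3475 and 6884 (1.16, or under 2-fold on the deposited scale). Ccl5 and Ccl2, attractants of T cells and monocytes, stayed at their level of 10 µg/ml, with -0.08 and 0.08, and Ccl5 had signals of 7.1, 11.5, 671 and 561. Of 6 CXC and CX3C chemokines, in contrast, 3 were at least 2-fold lower and 1, Cxcl2, was higher, with a median of -0.73. Cxcl2, which attracts neutrophils, had signals of 81, 91.6, 1224 and 9014 (3.06, 8.32-fold). These differences between families were not tested.

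Several genes of the prostaglandin and nitric oxide list and of the NF-kB list were also raised at 10 µg/ml and higher again at 100. Ptgs2, the inducible cyclooxygenase, had signals of 11.3, 35.4, 228 and 3404 (4.08, 16.9-fold), and Nos2, the inducible nitric oxide synthase, 11.6, 28.3, 172 and 784 (2.37). Slc7a1, a transporter of the nitric oxide precursor arginine, was higher by 2.58. Odc1, which starts polyamine synthesis and had not been raised at 10 µg/ml, was higher by 2.13. Both are members of this list, of which 9 of 17 genes on the array were tested. Of the 9, these 4 were higher and 1 was lower (median 0.27). The lower one was Pla2g4a, a phospholipase that releases arachidonic acid, with 179.8 at 10 and 68.8 at 100 µg/ml (-1.21). Ptgs1, Ptgds, Nos3 and Gch1, of the same list, stayed within 2-fold. On the lower-dose arrays alone, Ptgs2 and Nos2 would have fallen under the signal filter, so their high signal at 100 µg/ml brought them into this count. Among 6 NF-kB components and feedback genes, Cebpb, a transcription factor (1.57), Zfp36, which destabilizes cytokine mRNAs (1.46), and Nfkbia, the inhibitor of NF-kB (1.14, under 2-fold on the deposited scale), were higher and none was lower (median 0.77). Nfkb1, a subunit of the factor itself, had 5534 at 10 and 4096 at 100 µg/ml (-0.26). Traf2, of the same list, fell just short of the 2-fold limit (-0.998) and was past it on the deposited scale (-1.17). Gdf15, a cytokine of stressed cells, had signals of 56.9, 28.6, 168 and 4197 (4.82), and Inhba, the activin subunit, 54.7, 94.1, 147 and 1566 (3.59). Of 33 genes in this class, 11 had several tested probe sets, and in all 11 the probe sets agreed in sign.

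**Figure D3:**
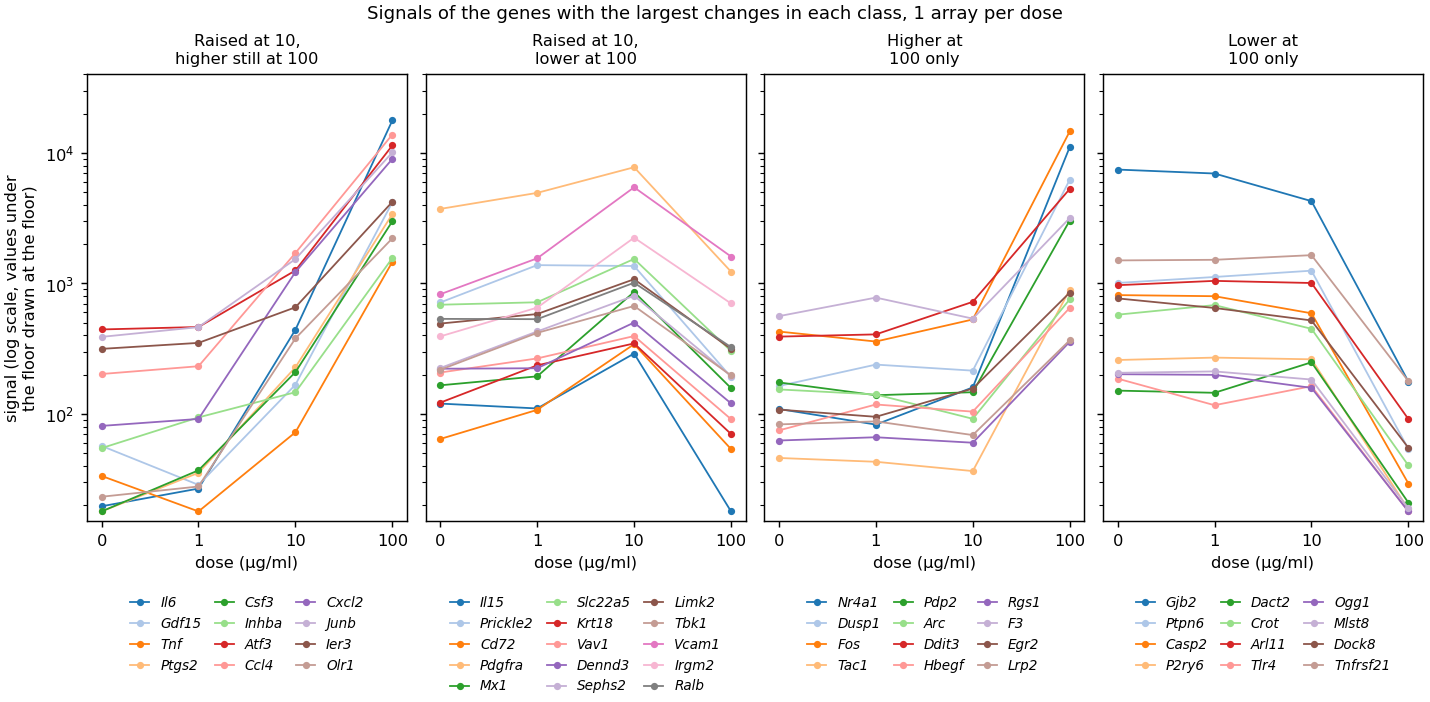
Signals on a log axis at 0, 1, 10 and 100 µg/ml, 1 array per dose, for the 12 to 15 genes with the largest last step in each of 4 classes, with values under 17.9 drawn at that floor. Il6 climbs from 442 to 17783 over the last step, the genes of the second panel other than Prickle2 peak at 10 µg/ml, Fos and Nr4a1 depart at 100 µg/ml only, and Gjb2 drops from 4278 to 177.

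Promoter sequence was looked up in a RefSeq table of build GRCr8, as 300-base windows from 250 bases before to 50 after a gene's start, and searched on both strands for 5 short motifs, of which matches overlapped in 1 tested gene. The letters GGG, any 2 bases and TTTCC, one form of the NF-kB element, occurred in 4 of the 22 windows found for the 33 genes that were higher again (18.2%), namely Ccl20, Cxcl2, Il6 and Nfkbia. They occurred in 1.51% of all 27457 windows, in 2.01% of those of tested genes, and in 3.7% of those of the genes that were lower again. Other forms of the element were not searched for, so a window without these letters may still hold one. The 250 bases upstream of Il6 (chr4:5894576-5894825, minus strand) and Cxcl2 (chr14:17467256-17467505, minus strand) are shown 5′ to 3′ because both genes took large last steps. Capitals mark the NF-kB letters in both and TGACGTCA, the cyclic AMP response element, in Il6.
Il6: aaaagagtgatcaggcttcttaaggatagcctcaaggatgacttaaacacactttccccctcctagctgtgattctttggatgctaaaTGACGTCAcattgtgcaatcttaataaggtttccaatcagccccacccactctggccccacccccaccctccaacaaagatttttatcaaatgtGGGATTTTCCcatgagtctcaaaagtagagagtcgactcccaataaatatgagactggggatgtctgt
Cxcl2: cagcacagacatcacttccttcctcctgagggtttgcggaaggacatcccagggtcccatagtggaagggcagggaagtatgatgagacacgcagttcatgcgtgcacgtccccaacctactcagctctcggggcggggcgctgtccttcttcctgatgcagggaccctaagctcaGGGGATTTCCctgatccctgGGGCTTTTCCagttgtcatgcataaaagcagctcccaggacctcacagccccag
The NF-kB letters lay 68 bases before the start of Il6, and 74 and 54 bases before that of Cxcl2. A match of letters is a description of the window and shows no binding.

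Genes raised at 10 µg/ml and lower at 100 included chemokines, an adhesion molecule and interferon-responsive genes. Cxcl10, a chemokine induced by interferon, had successive signals of 332, 547, 8879 and 3556 at 0, 1, 10 and 100 µg/ml, lower over the last step by 2.21-fold (-1.14 log2) but still far above both low arrays. Cx3cl1, a membrane-bound chemokine, had 726, 1078, 5105 and 1700.4 (-1.41; the mean over its 3 probe sets was under 2-fold), and Cxcl13, which attracts B cells, 58.9, 110.2, 183 and 60.6 (-1.42). Vcam1, an adhesion molecule that binds leukocyte integrins, had 827, 1559, 5461 and 1609 (3-fold lower, -1.59). Icam1, the adhesion molecule that usually accompanies it, went the other way, with 1829.9, 2016, 6358 and 16694 (1.57). Among 6 tested leukocyte adhesion genes these were the 2 that changed, and the median was 0.02. Pdgfra, the receptor for platelet-derived growth factor and a marker of oligodendrocyte precursors, had 3730.1, 4949.7, 7779.8 and 1232, so that at 100 µg/ml it was lower by 5.59-fold (-2.48) and below every other astrocyte array. Gbp2, a GTPase induced by interferon, had 678, 903, 5654 and 2878, and its -0.80 stayed within 2-fold, although it passed 2-fold after quantile normalization.

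Of the 12 tested genes of the interferon and antiviral list, 8 had been raised from 0 to 10 µg/ml, with a median of 1.10. At 100 µg/ml, 6 were at least 2-fold lower than at 10 and none was higher, 50% against 12.8% of all genes, with a median of -0.95. The 6 were Mx1 and Mx2, GTPases that block virus replication, Irf1 and Irf7, transcription factors of the interferon system, Eif2ak2, a kinase activated by double-stranded RNA, and Ifnar1, a receptor subunit for type I interferon. Mx1 had signals of 166, 194, 862 and 158 and was back at its untreated level (-2.27). Irf1 had 2431, 3305, 12761 and 4719.7 (-1.26), and Mx2 205, 301, 421 and 150.3 (-1.31). Ifnar1 stood at -1.13 log2, and Irf7, with 999 at 10 and 442 at 100 µg/ml, lay just past the 2-fold limit. Stat2 (-0.90), Oas1a (-0.75) and Irf8 (-0.73) did not reach it. The list was not uniform: Rsad2, an antiviral enzyme, kept its level (-0.17), and Ifitm3, a membrane protein that hinders virus entry, had moved little at any dose (6163, 6762, 7347 and 6769.7). On the deposited scale 7 of the 12 were lower and none was higher.

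The rest of the 30 genes were more varied. Il15 had signals of 120.1, 110.2, 291 and 16.8, the largest last step of the class (-3.94), with the last signal near the floor. Tbk1, a kinase that activates IRF factors, had 218, 418, 672 and 197 (-1.59), Irgm2, an interferon-induced GTPase, 393, 653, 2244 and 703 (-1.50), and RT1-S3, a class I histocompatibility gene, 592, 499, 1150.0 and 392 (-1.37). Prickle2, a planar polarity protein (-2.65), Slc22a5, a carnitine transporter (-2.17), Krt18, a keratin (-2.13, probe sets from -2.13 to -0.87), Dennd3 (-1.88), Sephs2, of selenoprotein synthesis (-1.87), Limk2, a kinase of the actin cytoskeleton (-1.60), and Ralb, a small GTPase (-1.46), were also in this class. Cd72 (-2.49), Vav1 (-1.94) and Cd53 (-1.12) are genes of blood cell lineages, which microglia also express. At 100 µg/ml, 22 of the 30 genes were within 2-fold of untreated cells, 5 still at least 2-fold above and 3 at least 2-fold below. With the mean of the arrays at 0 and 1 µg/ml as the untreated level, 26 of the 37 probe sets still met the rule.

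Antigen presentation genes stood between these courses. Of 13 class I genes, 5 had been raised at 10 µg/ml, 1 of the 13, RT1-S3, was at least 2-fold lower at 100, and the median was -0.21. Tap1, a peptide transporter, kept its level (-0.22), and Psmb9, an immunoproteasome subunit, had 2427 at 10 and 1366 at 100 µg/ml (-0.65). Of 7 class II genes only RT1-DMb, which helps to load peptides, was at least 2-fold lower, with 1511, 1771, 1452 and 161 (8-fold). None of 11 complement and acute phase genes changed 2-fold (median -0.42), with C1qb, a subunit of the first complement component made by microglia, the lowest at -0.91, or just past 2-fold on the deposited scale.

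The letters GAAA, any 2 bases and GAAA, a part of the interferon-stimulated response element, were found in 5 of the 27 windows of the genes that were lower again (18.5%): Cxcl10, Irf7, Irgm2, RT1-S3 and Vcam1. They occurred in 11.3% of the windows of genes that kept their level, in none of the 22 of genes that were higher again, in 3.77% of all windows and in 3.3% of those of tested genes. The 250 bases upstream of Cxcl10 (chr14:15988816-15989065, plus strand), Vcam1 (chr2:206742784-206743033, minus strand) and Irf7 (chr1:205800024-205800273, minus strand) are shown 5′ to 3′, as a chemokine, an adhesion and an interferon gene of this course. Capitals mark these letters on either strand and, in Cxcl10, also TGANTCA, a loose form of the AP-1 element that allows any middle base.
Cxcl10: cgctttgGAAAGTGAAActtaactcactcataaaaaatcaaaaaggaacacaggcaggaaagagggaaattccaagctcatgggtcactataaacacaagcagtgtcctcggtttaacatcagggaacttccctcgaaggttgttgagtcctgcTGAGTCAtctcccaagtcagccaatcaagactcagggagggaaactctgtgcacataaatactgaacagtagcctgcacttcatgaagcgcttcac
Vcam1: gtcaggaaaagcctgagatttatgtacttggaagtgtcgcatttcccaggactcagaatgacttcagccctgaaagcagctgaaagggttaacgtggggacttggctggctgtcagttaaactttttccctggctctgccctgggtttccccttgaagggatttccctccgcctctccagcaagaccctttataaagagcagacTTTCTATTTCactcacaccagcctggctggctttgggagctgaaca
Irf7: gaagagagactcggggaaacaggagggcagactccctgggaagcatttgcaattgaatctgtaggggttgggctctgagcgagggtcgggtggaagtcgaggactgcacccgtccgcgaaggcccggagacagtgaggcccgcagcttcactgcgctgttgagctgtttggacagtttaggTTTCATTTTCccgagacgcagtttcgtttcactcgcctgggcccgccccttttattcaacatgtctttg
In Vcam1 and Irf7 the letters run on the opposite strand, and they begin 243, 46 and 69 bases before the starts of Cxcl10, Vcam1 and Irf7. TGANTCA was present in 14.8% of the windows of genes that were lower again, 18.2% of those that were higher again and 7.33% of all windows. Its share was 4.86% in tested genes, 8.06% in genes that kept their level and 7.25% in those higher at 100 µg/ml only.

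Markers of microglia and macrophages were lower at 100 µg/ml together with the interferon genes. Of the 17 tested, 8 were at least 2-fold lower and 1 higher (median -0.91). Ptpn6, a phosphatase of blood cell lineages, had signals of 1009.5, 1122, 1254 and 53.9 (20.6-fold lower, -4.36). P2ry6, a nucleotide receptor of phagocytic microglia, had 259, 270.4, 262 and 18.6 (-3.64), Arl11, a small GTPase, 970.4, 1048, 1009 and 91.4 (-3.29), and Tlr4, the receptor for lipopolysaccharide, 187, 117, 163 and 11, where the last signal lay under the floor and the fall was at least 9.12-fold. All 4 stayed within 2-fold of untreated cells at 1 and 10 µg/ml. Aif1, a calcium-binding protein of microglia, had 1636, 1382, 1426 and 251 (-2.33), and P2ry12, a receptor of resting microglia, 372, 288, 126 and 31.6, lower with each dose. Dock8, an exchange factor of blood cells, stood at -3.07, though its 2 probe sets differed (-3.07 to -0.93).

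Not all genes of these cells were lower. Cd14, a co-receptor of Tlr4, had 1488, 1922, 7418 and 8952 (0.45), Lgals3, a lectin of phagocytes that reactive astrocytes can also express, 4672, 5691, 7267 and 11429.6 (0.83), and Fcgr2b, an inhibitory antibody receptor, 248, 258, 618 and 1162 (1.09, under 2-fold on the deposited scale). Lyz2, lysozyme, had 15616, 14839.5, 13383 and 10258 (-0.21). Itgam and Csf1r, defining markers of microglia, had signals of at most 29.0 on all 4 astrocyte arrays, and Ptprc went from 103 to 26.9, all 3 too dim to be tested. In a bulk culture, fewer cells of a type and less RNA per cell cannot be told apart, and the part of these cells in the lower interferon, chemokine and class II signals was not tested. The marker sum of microglia was 4914, 5633, 5918 and 2307 at 0, 1, 10 and 100 µg/ml. Il6 and Tnf were highest on the array at 100 µg/ml, and any link with the fall of this sum was not tested.

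**Figure D4:**
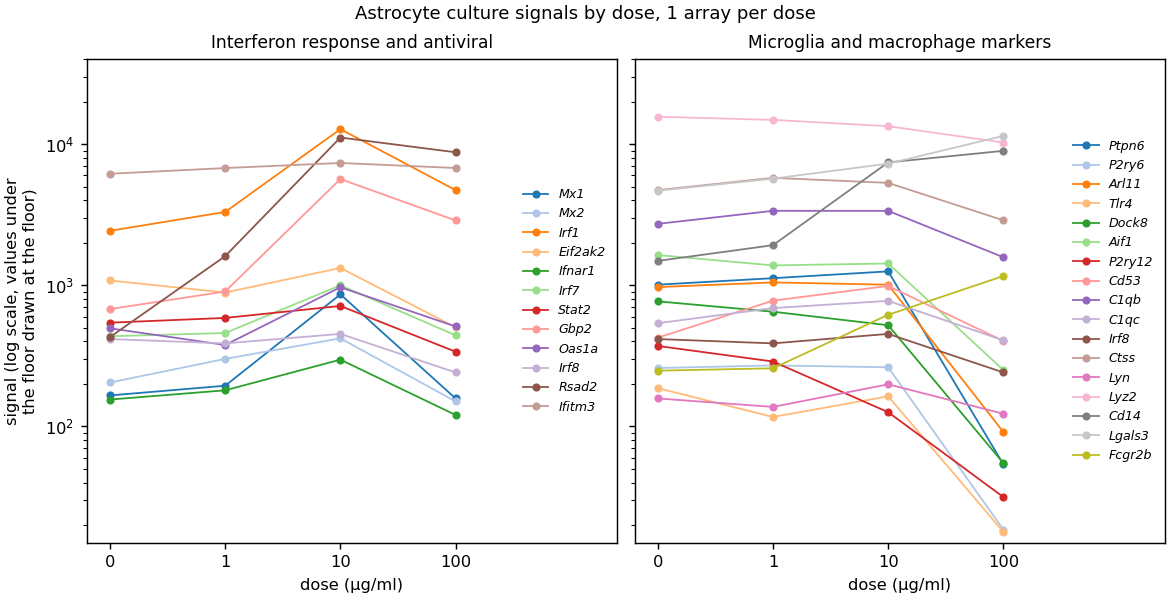
Signals of the 12 tested interferon genes (left) and the 17 tested microglia and macrophage genes (right) on a log axis at the 4 doses, 1 array per dose, with values under 17.9 drawn at that floor. Mx1, Irf1 and Gbp2 peak at 10 µg/ml, whereas Ptpn6, P2ry6 and Arl11 are flat up to 10 µg/ml and drop at 100, and Cd14 and Lgals3 are highest at 100.

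The 3 largest changes among genes higher at 100 µg/ml only were of immediate early genes, Nr4a1, Dusp1 and Fos. Of 23 tested, 16 were at least 2-fold higher than at 10 µg/ml and 1, Dusp6, lower (median 2.28), and 9 of the 16 met the rule for genes higher at 100 µg/ml only. Nr4a1, a nuclear receptor, had signals of 109, 82.9, 159.8 and 11099 (78.5-fold, 6.29 log2). Fos, a subunit of the AP-1 factor, had 428, 359, 530.1 and 14647 (4.96), and Dusp1, a phosphatase that inactivates MAP kinases, 164, 239, 215 and 6243 (5.04). In each of these 3 the lower arrays lay close together and the last stood alone. Arc, a regulator of synapses, had 154, 141, 91.8 and 756 (3.22) and Egr2, a zinc finger factor, 108, 95.1, 156 and 851 (2.62). Atf3 and Junb, transcription factors of the same response, had started to rise at 10 µg/ml, with 444, 464, 1259 and 11436 (3.36) and 389.8, 463, 1538 and 10108 (2.89). Nr4a3 was higher by 3.91, and Dusp6, a phosphatase of ERK, stood at -1.12, or within 2-fold after quantile normalization.

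The CArG box, bound by serum response factor, was found in 5.8% of the 69 windows of genes higher at 100 µg/ml only, in Egr1, Egr2, Klf6 and Atp7a, against 1.64% of all windows and 1.56% of those of tested genes. TGACGTCA was found in 4.35% of the 69, among them Dusp1, against 1.91% of all and 2.86% of tested. Neither was particular to this class: of the 22 windows of genes that were higher again, 4.55% held the CArG box and 9.09% TGACGTCA. The 250 bases upstream of Dusp1 (chr10:17184603-17184852, plus strand, with TGACGTCA in capitals) and Egr2 (chr20:21054442-21054691, minus strand, with the CArG box in capitals) are shown 5′ to 3′ because both genes stayed within 2-fold of untreated cells up to 10 µg/ml.
Dusp1: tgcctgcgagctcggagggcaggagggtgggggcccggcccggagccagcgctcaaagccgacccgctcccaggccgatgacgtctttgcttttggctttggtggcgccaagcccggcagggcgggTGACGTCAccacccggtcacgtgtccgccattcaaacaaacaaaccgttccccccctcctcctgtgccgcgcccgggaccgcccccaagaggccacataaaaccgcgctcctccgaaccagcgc
Egr2: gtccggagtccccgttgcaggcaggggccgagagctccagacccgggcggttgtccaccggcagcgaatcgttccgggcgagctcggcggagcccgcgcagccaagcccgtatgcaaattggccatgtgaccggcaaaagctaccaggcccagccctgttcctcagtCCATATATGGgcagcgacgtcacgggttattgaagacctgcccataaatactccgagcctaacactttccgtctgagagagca
The matches began 124 bases before the start of Dusp1 and 83 before that of Egr2.

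Of 19 genes of the ER stress and integrated stress response, none was lower and 10 were higher by at least 2-fold (median 1.04). Of the 10, 5 had already been raised at 10 µg/ml and 5 were higher at 100 µg/ml only. Among the 5 already raised, Atf3, Gdf15 and Cebpb are also counted in the immediate early, growth factor and NF-kB lists. Ddit3, the factor CHOP, had signals of 392, 407, 724 and 5305 (3.05), Trib3, a pseudokinase induced by it, was higher by 2.09 after 1.54 from 0 to 10 µg/ml, Ppp1r15a, which restores translation, by 1.99 after 1.36, and Asns, asparagine synthetase, by 1.34. Slc7a5, an amino acid transporter, was higher by 2.05. Of the chaperones of the ER lumen, Hspa5 stood at 1.04, Pdia4 at 1.29 and Hsp90b1 at 0.28. Of 18 cytosolic and mitochondrial heat shock genes, Hspa1a, the inducible HSP70, with 178, 199, 142 and 428 (1.77), and Cryab, a small heat shock protein (1.35), were the 2 higher ones (median 0.18). Of 32 NRF2 targets and antioxidant genes, 1 was higher and 2 lower (median 0.32). Hmox1, heme oxygenase, had 1345, 1608, 5607 and 12871 (1.38), Gclm, a subunit of the enzyme that limits glutathione synthesis, 148, 209, 320.2 and 138 (-1.03, under 2-fold after quantile normalization or as the mean of its probe sets), and Gstt2, a glutathione transferase, -1.40 with its other probe set unchanged (-1.40 to 0.01).

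Genes of cholesterol synthesis and uptake had the highest median of the metabolic lists. Of 17 tested, 10 were at least 2-fold higher than at 10 µg/ml and none lower (median 1.06, after 0.06 from 0 to 10 µg/ml), and 8 of the 10 met the rule for genes higher at 100 µg/ml only. On the deposited scale 6 were higher and 1, Mvk, was lower. Insig1, which holds SREBP in the ER and is itself an SREBP target, had signals of 695, 584, 799 and 3518 (2.31). Idi1, isopentenyl diphosphate isomerase, had 287, 241, 190.0 and 766 (2.19), Fdps, farnesyl diphosphate synthase, 749.9, 515, 764 and 2363 (1.81), and Sqle, squalene epoxidase, was higher by 1.33. Mvk, mevalonate kinase, went against the list at its brightest probe set (-0.97), but its 2 probe sets differed (-0.97 to 0.64). Of 25 fatty acid genes 3 were higher and 2 lower (median 0.21): Fasn, fatty acid synthase (1.33), Scd, a desaturase (1.31), and Plin2, a lipid droplet coat (1.02, under 2-fold on the deposited scale), against Crot, a peroxisomal carnitine transferase (-3.30), and Acsl5, an acyl-CoA synthetase (-1.67).

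Of 22 glycolysis and transport genes, 4 were higher and 1 lower (median 0.46). Among the 4, the only enzyme of glycolysis itself was Pfkl, a phosphofructokinase subunit (1.10, under 2-fold on the deposited scale). Slc2a1, the glucose transporter GLUT1, had 1564, 1516, 1956 and 4700.2 (1.44), Adm, a hypoxia-induced peptide, 472, 414, 337 and 1176 (1.98), and Pdp2, the phosphatase that activates pyruvate dehydrogenase, 174, 139, 147 and 3037 (4.55), while Pdk2, the kinase that inactivates it, had 1766, 1784, 1589 and 581 (-1.28). Genes of constitutive machinery changed less than 2-fold throughout: none of 25 for oxidative phosphorylation (median 0.15), none of 39 for cytosolic ribosomal proteins (0.12) and none of 20 for the proteasome (-0.03) passed the limit on this or the deposited scale.

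Of 19 matrix proteases, their receptors and their inhibitors, 6 were higher and none lower (median 0.50). The 6 were the proteases Mmp3 (1.28), Mmp9 and Plau, the receptor Plaur, and the inhibitors Timp1 and Serpine2 (1.25). Mmp9, a gelatinase, had signals of 158, 140.5, 792 and 3229.5 (2.20), Plaur, the urokinase receptor, 189.9, 162, 259.9 and 994 (2.11), and Plau, urokinase, 250.2, 249.8, 148 and 502 (1.94), and Timp1 was higher by 1.52. F3, tissue factor, had 562, 779.6, 538 and 3174 (2.74). Of 25 collagens and matrix proteins, Sdc4, a cell surface proteoglycan (1.27, under 2-fold after quantile normalization), and Lamc1, a laminin chain (1.05, under 2-fold on the deposited scale), were higher, and Dcn, decorin, was lower (-1.08, under 2-fold after quantile normalization or as the mean of its probe sets; median of the list 0.39). Tac1, the precursor of substance P, had 46, 43, 36.5 and 895 (4.79), Rgs1, a regulator of G protein signalling, 62.6, 66.3, 60.2 and 357 (2.75), and Lrp2, an endocytic receptor, 83.2, 87.7, 68.9 and 367 (2.59).

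Among 28 growth factors and receptors, 6 were higher and 9 lower (median -0.03), and the lower ones included genes of the BMP pathway. Bmp4, a ligand, had signals of 253, 219.8, 128 and 8.1, with the last under the floor, a fall of at least 7.14-fold. Bmp6, another ligand, stood at -1.87 log2 and Bmpr1a, a receptor, at -1.22. Id1, Id2 and Id3, inhibitors of helix-loop-helix factors that BMP signalling induces, stood at -2.43, -2.23 and -1.15, with Id1 at 1381, 1416, 816 and 134. Igf1 (-1.28) and Pdgfa, a ligand of Pdgfra (-1.26), were lower too. On the higher side stood Gdf15, Inhba, Hbegf, a ligand of the EGF receptor, with 74.8, 118, 104 and 650.2 (2.82), and Nrg1 (1.16). Fst, which binds activin, had 579, 436, 112 and 245 (1.31) and Tgfb3 591, 620.2, 135 and 275 (1.20), so both had been lowered at 10 µg/ml and had lower signals at 100 µg/ml than in untreated cells.

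The astrocyte list moved little as a whole, with 1 of 21 genes higher and 2 lower (median 0.11). Gjb2, the gap junction protein connexin 26, had signals of 7469, 6966, 4278 and 177, the largest fall of any tested gene (21.4-fold, -4.42). Slc1a3, a glutamate transporter, had 3976, 4162, 3946 and 966 (-1.85), with probe sets from -2.51 to -0.16. Aqp4, a water channel, had 567, 570.0, 499.9 and 255 (-0.80), and Gja1, the main astrocyte connexin, 144, 149.8, 57 and 75.6 (0.58). Nes, nestin, was higher by 1.05, or under 2-fold on the deposited scale. Neuron and endothelial markers had no change of 2-fold (15 and 5 tested, medians 0.11 and -0.02). Of 16 fibroblast markers only Dcn was lower (median 0.29), and of 9 oligodendrocyte lineage genes only Pdgfra (median -0.06), while Mbp, myelin basic protein, had 3378 at 10 and 5222 at 100 µg/ml (0.80) and Cspg4, the NG2 proteoglycan of precursors, 95.1 at 10 and 121 at 100 µg/ml (0.52).

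Genes lower at 100 µg/ml only were the most numerous class. Falls of at least 2-fold from 10 to 100 µg/ml were more frequent among dim probe sets: in 4 equal bins of signal, from dim to bright, 16%, 17.6%, 11.7% and 4.42% were lower. The bins use the mean over the 4 astrocyte arrays, so a fall itself moves a probe set toward a dimmer bin. In the same bins 8.18%, 7.06%, 6.96% and 5.17% were higher. The median change was -0.0157, -0.155, -0.0636 and 0.153, a dependence on signal that centring on a single median leaves in place. Casp2, an initiator caspase, had signals of 815, 799, 591 and 29.3 (-4.16), and Tnfrsf21, a death receptor, 1503, 1519, 1649 and 178 (-3.03). With Casp6 (-1.64) and Casp1 (-1.48) they made 4 lower genes of 15 of the p53, caspase and Bcl2 list (none higher, median 0.04), whereas Cdkn1a, a cell cycle inhibitor and p53 target, had 626 at 10 and 742 at 100 µg/ml (0.42). Of 20 cell cycle genes 4 were lower, Cdc20 (-1.53), Mcm5 (-1.26), Plk1 (-1.15) and Cdk1 (-1.03), and Tubb5, a tubulin, was higher (1.08, under 2-fold on the deposited scale; median of the list -0.22). Dact2, a modulator of Wnt signalling (-3.40), Ogg1, a DNA repair glycosylase (-3.11), and Atrx, a chromatin remodeller (-3.01), had signals of 16.2 to 22.4 at 100 µg/ml, near the floor. Mlst8, an mTOR complex subunit, stood at -3.10, but its 2 probe sets differed (-3.10 to 0.13).

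**Figure D5:**
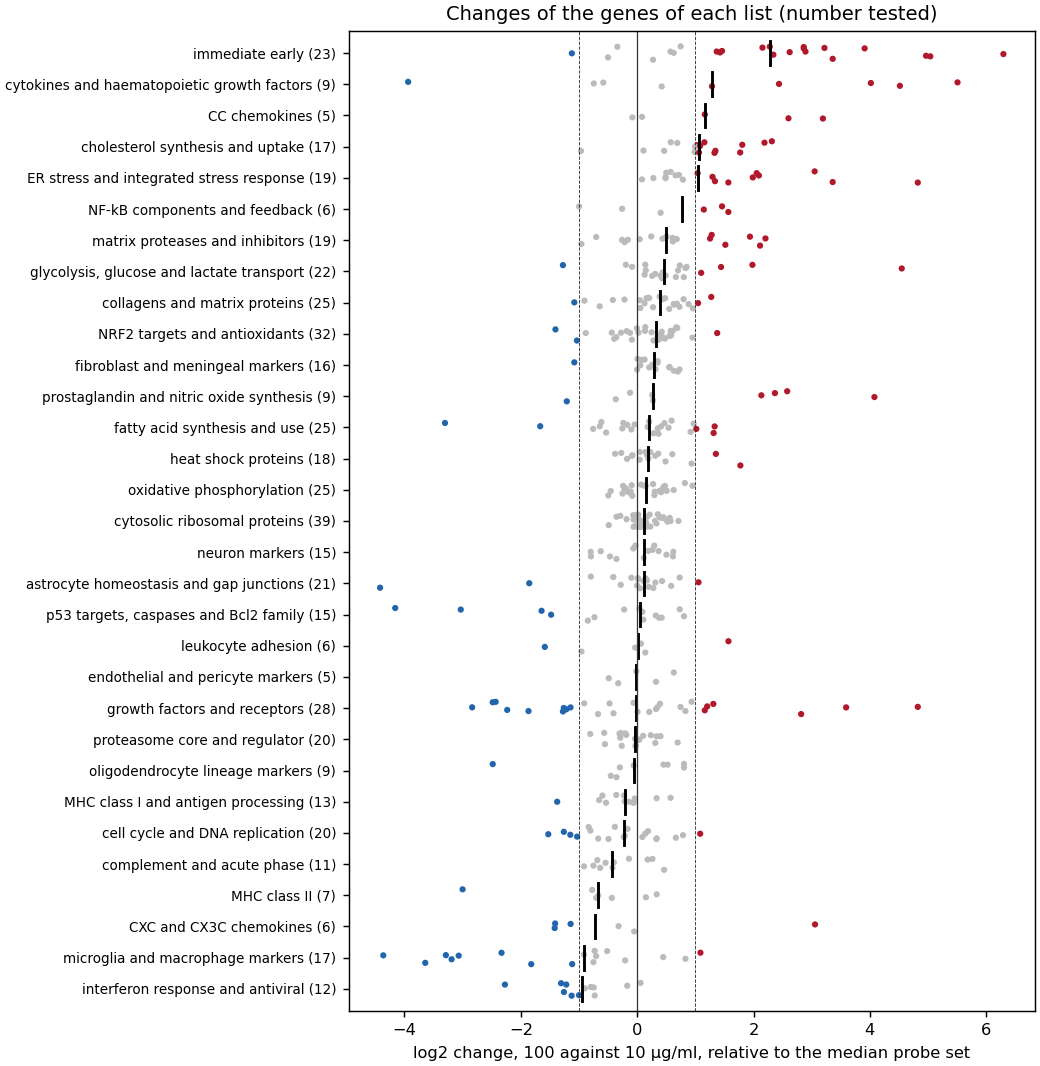
Each point is the log2 change of 1 gene from 10 to 100 µg/ml relative to the median probe set, by list, with red and blue for at least 2-fold higher and lower and a black bar at the median of the list. Lists are ordered by median, from the interferon list at -0.95 to immediate early genes at 2.28, and the ribosomal, oxidative phosphorylation and proteasome lists stay between the dashed 2-fold lines.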

How the data were processed

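Total RNA (100 ng) was amplified in a two-cycle procedure, biotin-labelled and hybridized, per the labels' protocols, with 1 array per dose in each cell type (7 in all). The deposited signal intensity values are linear and came from GCOS, per the submitters' processing notes, in a release not given in the sources used here. On every array the 2%-trimmed mean was between 500.731 and 500.874. Of 8799 probe sets 59 controls were left out. Of the remaining 8740, 7006 had 1 symbol in the platform annotation, 308 several and 1426 none, and 6985 gene IDs were found in a RefSeq table (GRCr8), with 0 symbols changed.

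Each astrocyte array was scaled to a median log2 difference of 0 from the 10 µg/ml array over tested probe sets, then raised to a floor at the 25th percentile of all signals (17.9), and log2 was taken. Probe sets were tested where their mean log2 over the 4 astrocyte arrays exceeded the median of all signals (79.9). With 1 array per dose there were 0 replicates, the number of arrays limits the precision, and no test was run. The code for the classes was run on simulated data with known classes. The simulated noise was smaller than the spread between the low-dose arrays here. The planted steps were larger than 2-fold and lay only in moderately bright to bright probe sets. The simulation therefore checks the code and does not measure false class calls in these data. Genes were named by rule: the largest changes of each class, the largest overall (15 each way), Cxcl10, Gbp2, Vcam1, Cx3cl1 and Pdgfra, and the 3 largest each way of each of 31 lists. Any other gene was chosen after its values had been seen. The comparison, the lists and the rules were chosen with earlier results of these data known.

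Motifs were matched by exact letters in RefSeq windows of 300 bases. Alternatives were the deposited scale, quantile normalization, no floor, other signal filters, 1 value per gene, other fold limits and other reference arrays. Python 3.11.15 with pandas 2.3.3, numpy 2.4.6 and matplotlib 3.10.9 was used.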

Additional observations from a re-analysis of the deposited data

How the results depend on the processing

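Counts are given in the order higher, lower, higher again, lower again, higher at 100 µg/ml only, lower at 100 µg/ml only and returned, 291, 528, 54, 37, 143, 348 and 24 as reported. A signal filter also sets the probe sets used for centring, whose median change from 10 to 100 µg/ml was -0.18 as reported, 0 with no filter (8740 probe sets) and -0.11 with a stricter filter at 435.7 (2129). With no filter and the centring this gives, 5 counts moved by over 1.5 times: 515 higher, 948 lower, 87 lower again, 626 lower only and 98 returned. With no filter and the centring held as reported, an alternative chosen after seeing the data, the counts were 702, 753, 67, 79, 297, 453 and 106, and every probe set of the reported counts was among them. The stricter filter gave 116, 189, 33, 17, 59, 120 and 5, and with the centring held 129, 171, 33, 19, 69, 111 and 5. With 1 value per gene (2695 items), the counts that moved were 175 higher, 337 lower, 32 higher again, 88 higher only, 223 lower only and 13 returned. A limit of 4-fold gave 77, 107, 19, 2, 51, 75 and 2, and a limit of 1.5-fold 667, 964, 116, 151, 288, 574 and 89. On the deposited scale 95 were higher only. The remaining counts, also under quantile normalization, no floor, a filter on 2 arrays and other reference arrays, stayed within 1.5 times of the reported ones, and no named gene at 2-fold changed sign. The medians of 7 lists, all within 0.15 of 0 (astrocyte, ribosomal, oxidative phosphorylation, adhesion, p53, neuron and endothelial), changed sign under the deposited scale, quantile normalization or 1 value per gene. After quantile normalization the median was 0.82 for CC chemokines, 0.95 for cytokines, 0.70 for ER stress and 0.98 for cholesterol genes. As reported these medians were 1.16, 1.29, 1.04 and 1.06. With 1 value per gene the cytokine median was 1.78. Of 37 probe sets lower again, 30 met the rule on the deposited scale (38 in all), 26 after quantile normalization (29 in all) and 26 with the mean of 0 and 1 µg/ml as reference. Of 107 named genes at 2-fold, 7 fell under it on the deposited scale, 9 after quantile normalization and 4 with 1 value per gene. No paired analysis was possible because each group holds 1 array and no array could be left out. Dim signals limit the fall of a gene, since a signal cannot be followed under the floor.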

Other observations

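A small class of 13 genes ran opposite to the interferon genes, lowered from 0 to 10 µg/ml and at least 2-fold higher again at 100. Ccn1, a secreted matrix protein and immediate early gene, had successive signals of 342, 291, 67.5 and 435 at 0, 1, 10 and 100 µg/ml (2.86 log2 over the last step), and Cnn1, a calponin of contractile cells, had 1349.6, 1103, 379 and 1184 (1.82). Sostdc1, an inhibitor of BMP and Wnt signalling, had 301, 284, 52.2 and 146 (1.66) and Ndst1, of heparan sulphate synthesis, 181, 77.2, 59.5 and 172 (1.71). Cacnb1, a calcium channel subunit, had 101, 158, 34.1 and 85.7 (1.51). Cyp26b1, which degrades retinoic acid, had 912, 676, 35.8 and 80.5, a return of 1.35 that left it far below untreated cells. It was the single gene of the 13 still at least 2-fold below them. Each of these 6 genes rests on 1 tested probe set, and the array at 10 µg/ml enters both steps.

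Among the 76 genes that kept at 100 µg/ml the level reached at 10, Cd44, a hyaluronan receptor, had 368, 249, 973 and 841 (-0.03), Sod2, mitochondrial superoxide dismutase, 312, 343, 888 and 1266 (0.69), and Mmp14, a membrane-bound metalloprotease, 1825, 1541, 3639 and 2690.3 (-0.26). Of those 76, 51 were at least 2-fold above untreated cells at 100 µg/ml and 25 were within 2-fold. Over all classes, 122 genes with a change of at least 2-fold had several tested probe sets, and in 115 of them the probe sets agreed in direction.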
